A study of Mus musculus with 3 samples.

Results

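MHC class I antigen presentation was examined in mouse ES cells through 10 genes that were chosen by name: the heavy chains H2-K1 and H2-D1, their light chain B2m, the peptide transporter genes Tap1 and Tap2, the loading factor Tapbp, the immunoproteasome subunits Psmb8, Psmb9 and Psmb10, and the regulator Nlrc5. All 10 were found among the 24421 genes that were counted. RNA-Seq had been performed in 3 libraries of the female ES cell line EL16.7, whose strain label is F2:129S1/CastEiJx 129S1. The control library came from wild type cells transduced with a control (scramble) shRNA, and the NUP153 KD-1 and NUP153 KD-2 libraries came from cells transduced with either of the shRNAs against NUP153, a nucleoporin of the nuclear basket. In all 3 cultures the shRNA was delivered by lentivirus, the cells were grown with serum and LIF on γ-irradiated DR4 mouse embryonic fibroblasts (MEFs), and puromycin was applied at 2 μg/ml for 2 days before collection. Each condition is 1 library, which leaves the differences without a replicate check, and every comparison between libraries below compares those libraries, not the conditions. Whether MEFs were removed before RNA isolation is not given in the sources used here.

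Class I molecules carry peptides from inside the cell to its surface, where CD8+ T cells read them. Proteasomes cut the peptides, and in cells exposed to interferon the catalytic subunits of the immunoproteasome replace the constitutive ones. The TAP1-TAP2 transporter pumps the peptides into the endoplasmic reticulum, where tapasin holds the empty heavy chain and β2-microglobulin beside it, and NLRC5 activates transcription of many of these genes. Pluripotent stem cells are known for low class I levels, whereas fibroblasts express class I and raise it in response to interferon.

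The number of reads on genes was between 69839336 (NUP153 KD-2) and 85258834 (NUP153 KD-1). Nup153, the targeted gene, had 27870 reads in control, 16451 in NUP153 KD-1 and 11126 in NUP153 KD-2, a log2 fold change of -0.99 (95% interval -1.02 to -0.96) in NUP153 KD-1 and -1.43 (-1.46 to -1.40) in NUP153 KD-2. Fold changes were taken from reads scaled by upper-quartile normalization, with a pseudocount of 0.5 reads, over the 16670 genes that averaged 10 or more reads across libraries. A gene is named past the fold where its fold change was above 1.5 in either direction. Intervals are exact Clopper-Pearson intervals of the ratio of reads and cover counting error only. All 10 class I genes passed the filter on reads, and each of them had at least 24 reads in every library. The ES cell markers Pou5f1 and Nanog were at 218 and 275 RPKM (reads per kilobase of exon, scaled to the number of reads on genes) in control, and none of the 15 ES cell markers was at 0 in any library.

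Class I genes lay lower than control in the NUP153 KD-1 library and higher in the NUP153 KD-2 library. In NUP153 KD-1, 9 of the 10 genes had a log2 fold change below 0, and 4 of them were past the fold, all lower: Tap1, Psmb8, Psmb9 and Nlrc5. Over all genes tested, 5.62% were past the fold and lower in this comparison, 8.63% were higher, and 14.2% were past it in either direction. These shares are 937 genes lower and 1438 higher, against 1146 and 1216 with the size factors of DESeq2, and 549 and 479 with a minimum mean of 100 reads. In NUP153 KD-2, 9 of the 10 genes had a log2 fold change above 0, and 6 of them were past the fold, all higher: H2-K1, B2m, Tap1, Tap2, Tapbp and Psmb8. Over all genes tested, 17.1% were past the fold and higher in this comparison, 10.2% were lower, and 27.3% were past it in either direction. This split depends on the scaling, with 2847 genes higher and 1700 lower here and 3942 higher and 820 lower with library totals. The median of the 10 genes was -0.46 in NUP153 KD-1 and 0.71 in NUP153 KD-2 on the log2 scale, beside medians of 0.02 and -0.02 for all genes tested. Both comparisons share the control library. When the likelihood ratio test of edgeR was added to the fold at an assumed dispersion of 0.04 (a coefficient of variation of 20% between replicates) with an adjusted p under 0.05, none of the 10 genes was called in either comparison, and of the 16670 genes 79 were called in NUP153 KD-1 and 66 in NUP153 KD-2. This dispersion is an assumption, since single libraries give no estimate of it.

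**Figure D1:**
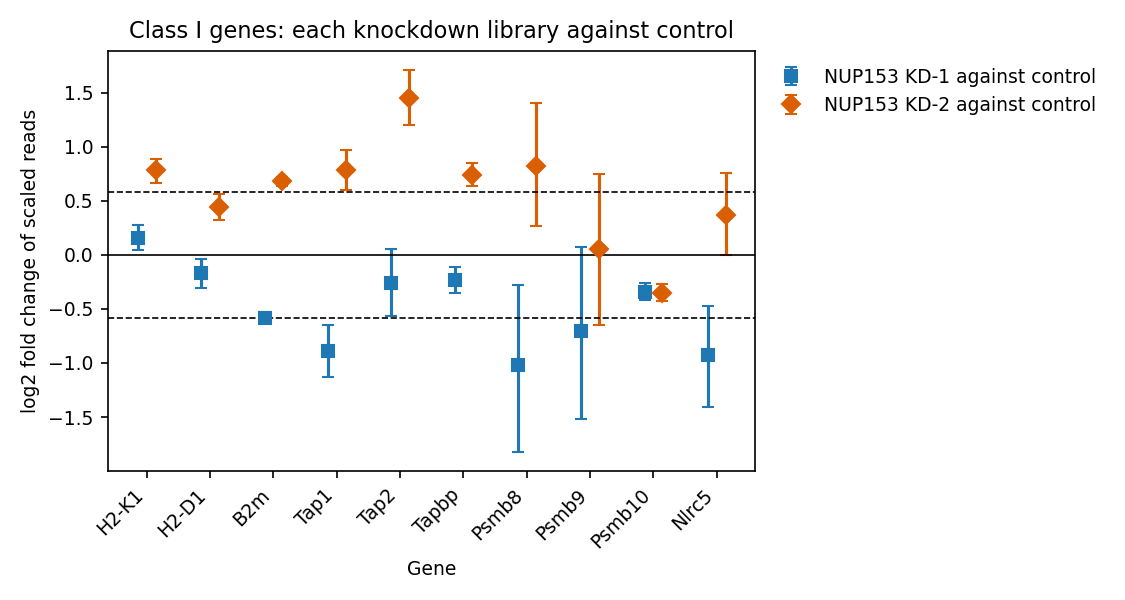
Log2 fold change of scaled reads (vertical axis) for each class I gene (horizontal axis) in the NUP153 KD-1 library (squares) and the NUP153 KD-2 library (diamonds) against the control library. Bars are 95% Clopper-Pearson intervals for counting error only, and dashed lines mark a fold change of 1.5. Squares lie below 0 for all genes other than H2-K1, and diamonds lie above 0 for all genes other than Psmb10.

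The heavy chain genes are shown with the sequence before their start sites, because the windows of both genes hold the same 4 motifs in the same order, with a further CCAAT in H2-D1, beside the B2m and Tap1 windows, which hold other sets. Each line gives the 250 bases upstream of the RefSeq start (GRCm38.p6, 5′ to 3′ on the strand of the gene), in lower case with motif matches in capitals. The motifs searched on both strands were GGGGATTCC (an NF-κB site), GAAANNGAA and GAANNGAAA (interferon response elements), TTCNNNGAA (a STAT site), TGACG (the core of a cyclic AMP response element) and CCAAT (an NF-Y site). The H2-K1 window is at chr17:34000348-34000597 on the minus strand, the H2-D1 window at chr17:35262844-35263093, the B2m window at chr2:122147437-122147686 and the Tap1 window at chr17:34187306-34187555, the last 3 on the plus strand.
H2-K1: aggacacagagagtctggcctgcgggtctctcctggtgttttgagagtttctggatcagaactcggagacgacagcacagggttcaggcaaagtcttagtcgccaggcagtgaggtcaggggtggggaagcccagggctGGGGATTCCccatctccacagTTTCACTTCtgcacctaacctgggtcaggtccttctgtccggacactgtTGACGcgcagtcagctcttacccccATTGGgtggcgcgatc
H2-D1: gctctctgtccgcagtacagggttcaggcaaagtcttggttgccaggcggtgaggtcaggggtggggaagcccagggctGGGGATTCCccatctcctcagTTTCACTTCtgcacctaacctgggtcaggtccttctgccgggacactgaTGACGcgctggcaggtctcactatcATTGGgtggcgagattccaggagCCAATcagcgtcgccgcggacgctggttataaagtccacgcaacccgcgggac
B2m: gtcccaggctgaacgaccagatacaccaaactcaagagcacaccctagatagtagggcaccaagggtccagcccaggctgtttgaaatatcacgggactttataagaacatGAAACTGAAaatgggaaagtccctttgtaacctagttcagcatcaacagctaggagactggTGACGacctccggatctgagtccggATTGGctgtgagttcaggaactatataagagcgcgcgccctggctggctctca
Tap1: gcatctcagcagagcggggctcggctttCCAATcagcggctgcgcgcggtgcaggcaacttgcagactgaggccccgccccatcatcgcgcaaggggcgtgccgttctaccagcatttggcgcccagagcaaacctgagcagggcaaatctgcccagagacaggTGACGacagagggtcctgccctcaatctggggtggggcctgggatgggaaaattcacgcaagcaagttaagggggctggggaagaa

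In H2-K1 the NF-κB motif begins 111 bases before the start, and in H2-D1 it begins 171 bases before the start. Aligned at this motif without gaps, 166 of 190 bases (87.4%) were identical between these windows. GGGGATTCC is present in 70 of the 32851 promoter windows of the same length (0.213%), and among the 8 class I genes with a window it is present in H2-K1 and H2-D1. GAANNGAAA is found in the same pair of genes and in 6.31% of all windows, and GAAANNGAA in B2m and in 7.13%. TGACG is found in 5 of the 8 (B2m, H2-K1, H2-D1, Tap1 and Psmb9) and in 17.8% of all windows, CCAAT in 6 of the 8 (these 5 and Tapbp) and in 33.8%. Psmb8 has TTCNNNGAA, as do 7.02% of all windows, and the Psmb10 window has none of these motifs. The starts of Tap1 and Psmb9 point away from each other with 225 bases between them, so that their windows overlap. The TGACG match of Tap1 is the same bases as that of Psmb9 on the other strand, and so is the CCAAT match. Both matches are counted for each gene, and the H2-K1 and H2-D1 windows are alike, so these counts are not of independent promoters. Each match is a description of letters in the window, and factor binding was not measured here.

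H2-K1 and H2-D1 encode the classical class I heavy chains. H2-K1 (ENSMUSG00000061232.16, chr17:33996017-34000347, GENCODE M21 on GRCm38) had 992 reads in control, 1297 in NUP153 KD-1 and 1831 in NUP153 KD-2. After scaling these were 1072, 1196 and 1837 reads, with NUP153 KD-2 the highest library. The log2 fold change was 0.16 (interval 0.04 to 0.28) in NUP153 KD-1 and 0.78 (0.66 to 0.89) in NUP153 KD-2, and H2-K1 was the only one of the 10 genes above control in both. H2-D1 (ENSMUSG00000073411.11, chr17:35262730-35267499) had 900, 934 and 1315 reads in the same order of libraries, which scaled to 973, 861 and 1319. NUP153 KD-2 was again the highest library, and control and NUP153 KD-1 lay closer together. Its log2 fold change was -0.17 (-0.31 to -0.04) in NUP153 KD-1 and 0.44 (0.32 to 0.56) in NUP153 KD-2, under the fold in both. Between the knockdown libraries the heavy chains moved by nearly the same amount, with a log2 fold change of NUP153 KD-2 against NUP153 KD-1 of 0.62 (0.52 to 0.72) for H2-K1 and 0.61 (0.49 to 0.74) for H2-D1. Of the windows of 50 bases (the read length) in their annotated transcripts, 9.63% for H2-K1 and 12.8% for H2-D1 are also found in transcripts of other genes, other class I genes among them, so that reads from these stretches could not be assigned to 1 gene. The reads were mapped to the mm10 reference, and reads of the 129S1 and CastEiJ alleles of these polymorphic genes were not analysed separately.

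B2m (ENSMUSG00000060802.8, chr2:122147686-122153083) encodes β2-microglobulin, the light chain that pairs with class I heavy chains and stabilises them at the cell surface. It had 8405 reads in control, 6582 in NUP153 KD-1 and 14482 in NUP153 KD-2, which scaled to 9083, 6070 and 14531 reads. The 3 libraries were well apart relative to the counting error, in the order NUP153 KD-1, control, NUP153 KD-2. Its log2 fold change in NUP153 KD-1 was -0.58 (-0.63 to -0.53), just under the fold. With TMM normalization, the size factors of DESeq2 or library totals B2m was past the fold in this comparison. In NUP153 KD-2 the log2 fold change was 0.68 (0.64 to 0.72), and 1.26 (1.22 to 1.30) between the knockdown libraries. No window of 50 bases in its transcripts was found in another gene.

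Per length of exon, B2m had the highest level of the class I genes in all 3 libraries, at 135 RPKM in control, 89.8 in NUP153 KD-1 and 241 in NUP153 KD-2, and 98.4% of the counted genes with a known length lay below it in control. Psmb10 ranked second in all 3 libraries, at 22.3, 17.5 and 19.5 RPKM. H2-D1, Tapbp and H2-K1 followed in control at 4.82, 4.68 and 4.67 RPKM. Tapbp and H2-K1 differed least here, and the order of the 3 genes was another one in each knockdown library. Tap1 and Tap2 were at 0.949 and 0.643 RPKM in control, and changed places in both knockdown libraries. Psmb8, Nlrc5 and Psmb9 were lowest, at 0.172, 0.168 and 0.132 RPKM in control, on 42, 103 and 35 reads. No spread between replicates is available against which neighbours in this order could be judged. Lengths are those of all annotated exons of a gene together, which lowers RPKM where an annotation includes retained introns.

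**Figure D2:**
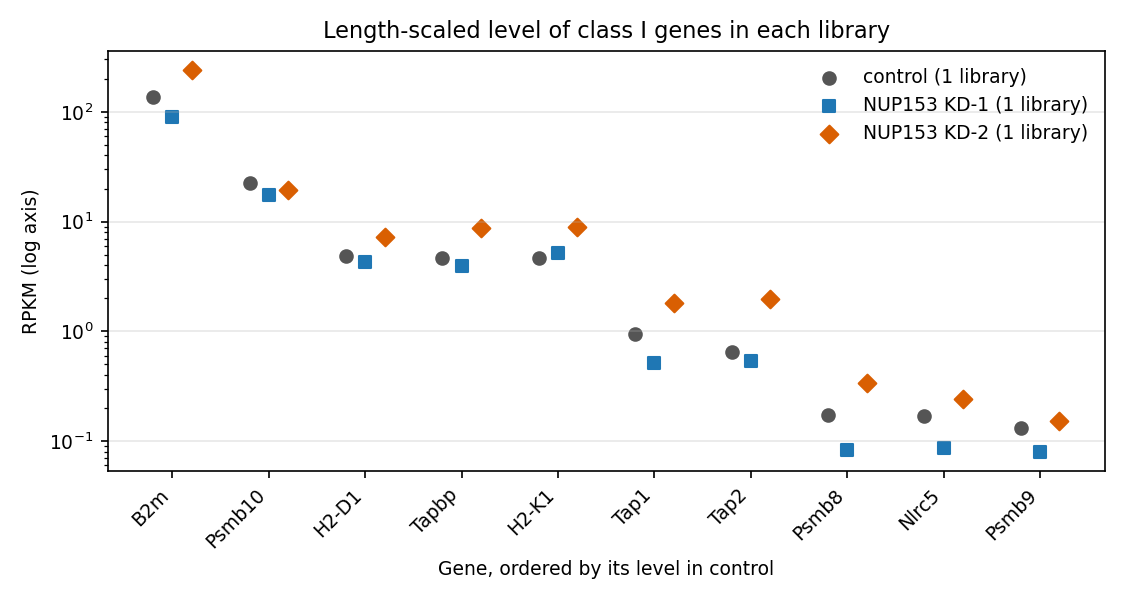
Level of each class I gene in RPKM (vertical axis, log scale) in the control, NUP153 KD-1 and NUP153 KD-2 libraries, with genes ordered by their level in control (horizontal axis). Each point is 1 library and there are no error bars. B2m lies between 89.8 and 241 RPKM, and Psmb8, Nlrc5 and Psmb9 lie under 0.5 RPKM in every library.

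Tap1 and Tap2 encode the subunits of the peptide transporter. Tap1 (ENSMUSG00000037321.17, chr17:34187553-34197225) had 376 reads in control, 238 in NUP153 KD-1 and 698 in NUP153 KD-2. It was past the fold in both comparisons and in opposite directions, with log2 fold changes of -0.89 (-1.13 to -0.65) and 0.78 (0.60 to 0.97). Tap2 (ENSMUSG00000024339.12, chr17:34203527-34216321) had 176, 172 and 518 reads, with control and NUP153 KD-1 close to each other and NUP153 KD-2 apart. Its value in NUP153 KD-1 was -0.26, and the interval of -0.57 to 0.05 includes 0. In NUP153 KD-2 it was 1.45 (1.20 to 1.71), or 2.73-fold, the largest difference from control among the 10 genes. Between the knockdown libraries both subunits of the transporter differed alike, at 1.67 (1.46 to 1.89) for Tap1 and 1.71 (1.46 to 1.97) for Tap2. Exons of Tap1 and Psmb9 share 212 bases on opposite strands, and the strand setting of the counting is not given in the sources used here.

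Tapbp (ENSMUSG00000024308.15, chr17:33915899-33929292) encodes tapasin, which bridges the transporter and the empty class I molecule. It had 1228 reads in control, 1227 in NUP153 KD-1 and 2216 in NUP153 KD-2, or 1327, 1132 and 2223 after scaling. NUP153 KD-2 stood apart from the other libraries. The log2 fold change was -0.23 (-0.35 to -0.11) in NUP153 KD-1, under the fold, and 0.74 (0.64 to 0.85) in NUP153 KD-2. Its exons share 149 bases with those of Zbtb22 on the same strand, and 23.2% of its windows of 50 bases are also found in other annotated transcripts.

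Psmb8, Psmb9 and Psmb10 encode the catalytic subunits of the immunoproteasome that replace those encoded by Psmb5, Psmb6 and Psmb7. Psmb8 (ENSMUSG00000024338.15, chr17:34197721-34201454) had 42 reads in control, 24 in NUP153 KD-1 and 80 in NUP153 KD-2, with log2 fold changes of -1.02 (-1.82 to -0.28) and 0.82 (0.27 to 1.40). Together with Tap1 it was past the fold in opposite directions, as were 349 of all genes tested (2.09%), lower in NUP153 KD-1 and higher in NUP153 KD-2. Psmb9 (ENSMUSG00000096727.3, chr17:34181987-34187764), which lies beside Tap1, had 35, 25 and 39 reads. Its value of -0.70 in NUP153 KD-1 was past the fold, but the interval of -1.52 to 0.07 includes 0, and at 0.05 (-0.65 to 0.75) in NUP153 KD-2 a difference was not detectable at this depth. Psmb10 (ENSMUSG00000031897.9, chr8:105935735-105938444) had 2747, 2545 and 2322 reads and departed from the pattern of the other genes. It was lower than control in both knockdown libraries, at -0.34 (-0.42 to -0.26) and -0.35 (-0.43 to -0.27). The difference between the knockdown libraries was -0.01 (-0.09 to 0.07), and its sign depends on the scaling, at 0.05 with TMM, 0.09 with the size factors of DESeq2 and 0.16 with library totals. With library totals the value of Psmb10 in NUP153 KD-2 against control was -0.19.

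The constitutive counterparts were far more abundant than Psmb8 and Psmb9. Psmb5, Psmb6 and Psmb7 had 12476, 24092 and 17057 reads in control, and none of them was past the fold in either knockdown library. Their log2 fold changes were 0.04, 0.01 and -0.07 in NUP153 KD-1 and -0.29, -0.28 and -0.42 in NUP153 KD-2. Per exon length, Psmb8 was at 0.0895% of Psmb5 in control (0.0645 to 0.121), 0.0424% in NUP153 KD-1 (0.0272 to 0.0631) and 0.193% in NUP153 KD-2 (0.153 to 0.241), and the 3 intervals do not overlap. Psmb9 was at 0.0743% of Psmb6 in control, 0.0449% in NUP153 KD-1 and 0.0933% in NUP153 KD-2, where the interval of control (0.0517 to 0.103) overlaps both others. Psmb10 was at 32.3% of Psmb7 in control (31.0 to 33.6) and 33.9% in NUP153 KD-2 (32.4 to 35.4), and lower in NUP153 KD-1 at 26.8% (25.7 to 28). These ratios are within a library and do not depend on the scaling between libraries. They do depend on the annotated exon lengths, whose error the intervals do not cover. In reads alone, Psmb8 and Psmb5 had 42 and 12476 in control, and Psmb10 and Psmb7 had 2747 and 17057.

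**Figure D3:**
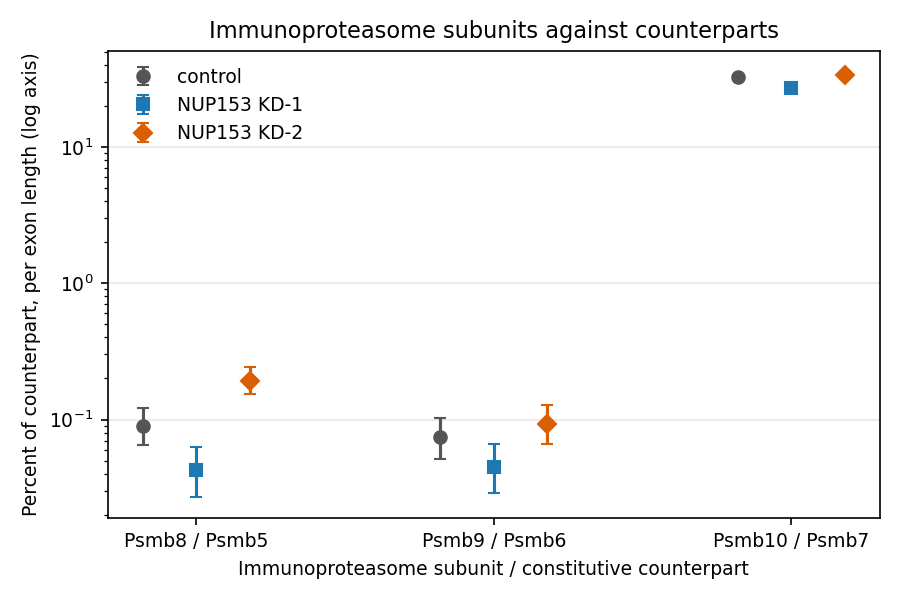
Level of each immunoproteasome subunit as a percent of its constitutive counterpart, per exon length (vertical axis, log scale), for the pairs Psmb8/Psmb5, Psmb9/Psmb6 and Psmb10/Psmb7 (horizontal axis) in each library. Bars are 95% intervals for counting error. Psmb10 lies between 26.8% and 33.9% of Psmb7, while Psmb8 and Psmb9 lie under 0.2% of their counterparts.

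Nlrc5 (ENSMUSG00000074151.13, chr8:94434356-94527272) encodes the transactivator of class I genes. It had 103 reads in control, 63 in NUP153 KD-1 and 144 in NUP153 KD-2, in the same order of libraries as B2m and Tap1. Its log2 fold change was -0.93 (-1.41 to -0.47) in NUP153 KD-1, past the fold, and 0.37 in NUP153 KD-2, under the fold, with an interval of 0.00 to 0.76 whose lower bound, 0.0015, is barely above 0. At 0.168 RPKM in control it was at about the level of Psmb8.

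Compared directly, NUP153 KD-2 was higher than NUP153 KD-1 past the fold in 9 of the 10 genes, and 16.1% of all genes tested were past the fold and higher in this comparison, 13.9% were lower, and 30.1% were past it in either direction. Here 2691 genes were higher and 2322 lower, against 3172 and 1555 with the size factors of DESeq2 and 3525 and 1229 with library totals. The median of the 10 genes was 1.12, and that of all genes tested was -0.12. Psmb8 differed most at 1.84 (1.19 to 2.58) and Psmb9 had an interval of 0.00 to 1.55. Both libraries carry the same genotype label, NUP153 knockdown.

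With both knockdown libraries as 1 group against control, the quasi-likelihood test of edgeR after TMM normalization called 0 of 16670 genes (0%) at an adjusted p under 0.05, 190 genes had an unadjusted p under 0.05, and the Wald test of DESeq2 called 2 genes. This test has 1 residual degree of freedom and takes the spread between libraries from the NUP153 KD-1 and NUP153 KD-2 libraries alone. None of the 10 class I genes was called or had an unadjusted p under 0.05 with either tool. By edgeR's quasi-likelihood test with Benjamini-Hochberg adjustment, the log2 fold change was largest for Tap2, at 0.87 (unadjusted p = 0.18, adjusted p = 1), higher in 1 of the 2 knockdown libraries. H2-K1, higher in both, was at 0.52 (unadjusted p = 0.244), and Psmb10, lower in both, was at -0.33 (unadjusted p = 0.395).

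Of the 10 genes, 7 lie on chromosome 17 between the start of Tapbp and the end of H2-D1 (chr17:33915899-35267499). Other tested genes in this interval, without class I heavy chains, number 73. In NUP153 KD-1, 7 of these neighbours (9.59%) were past the fold and higher and 5 (6.85%) were lower, with a median of 0.03, beside 8.63% and 5.62% of all genes tested. In NUP153 KD-2, 19 (26%) were higher and 8 (11%) were lower, with a median of 0.16, beside 17.1% and 10.2% of all genes tested.

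Other genes of the pathway were taken from lists that hold 4 further kinds of function. Of 29 other class I heavy chain genes, 15 passed the filter on reads. In NUP153 KD-1, 1 of the 15 was past the fold and lower, Mr1, which encodes the molecule that presents vitamin B metabolites, with a log2 fold change of -0.65 (-0.91 to -0.40). In NUP153 KD-2, 4 were past the fold and higher and 3 were lower. The shares past the fold were 6.67% in NUP153 KD-1 and 46.7% in NUP153 KD-2, beside 14.2% and 27.3% of all genes tested. The medians of the list were 0.10 and -0.01. H2-Q5, H2-T3 and Cd1d2, named after their values were seen, were past the fold in NUP153 KD-2. They had 14, 18 and 16 reads in control, and their intervals include 0. Fcgrt encodes the heavy chain of the neonatal Fc receptor, which pairs with β2-microglobulin. It had 1500 reads in control, 1576 in NUP153 KD-1 and 2864 in NUP153 KD-2, and was higher in NUP153 KD-2 at 0.83 (0.74 to 0.92). Hfe, a partner of the transferrin receptor, was at 0.91 (0.66 to 1.16), and Cd1d1, which presents lipids, was lower at -0.77, with 401 reads in control and 253 in NUP153 KD-2. H2-M5 was under the fold at 0.30 in NUP153 KD-1 and -0.44 in NUP153 KD-2. H2-T23 and H2-Q4, named here after their values were seen, had 175 and 251 reads in control and log2 fold changes between -0.05 and 0.10 in both knockdown libraries, with 14.5% and 36.4% of their windows of 50 bases shared with other genes. H2-Q7 is listed at 0 reads in all 3 libraries, and 26.5% of its windows of 50 bases are shared with other genes.

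For peptide loading and trimming, 2 of 13 genes (15.4%) were past the fold in NUP153 KD-1 and 1 (7.69%) in NUP153 KD-2, beside 14.2% and 27.3% of all genes tested. Erap1, the aminopeptidase that trims peptides in the endoplasmic reticulum, was lower with 654 reads in control, 416 in NUP153 KD-1 and 825 in NUP153 KD-2, at -0.88 (-1.06 to -0.70) and 0.23 (0.08 to 0.38). Abcb9, a lysosomal peptide transporter named here after its values were seen, was higher in NUP153 KD-1 and was the 1 gene of 13 past the fold in NUP153 KD-2, on 10 reads in control, 31 in NUP153 KD-1 and 59 in NUP153 KD-2. The chaperone Canx was at -0.18 and -0.39, Tapbpl, the relative of tapasin that edits peptides, at -0.15 and 0.32, the aminopeptidase Npepps at 0.11 and -0.40 and the aminopeptidase Lap3 at 0.08 and -0.33 in NUP153 KD-1 and NUP153 KD-2. The medians of this list were 0.03 and -0.10.

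Among 9 constitutive proteasome subunits, activators and assembly genes, 0 were past the fold in either knockdown library. Of all genes tested, 14.2% were past it in NUP153 KD-1 and 27.3% in NUP153 KD-2. The medians of the 9 genes were 0.01 in NUP153 KD-1 and -0.38 in NUP153 KD-2. Psme1 and Psme2, which encode the interferon-inducible activator PA28 and are named after their values were seen, were at -0.20 and -0.29 in NUP153 KD-1 and at 0.03 and 0.05 in NUP153 KD-2. Psme4 and Pomp had the lowest values in NUP153 KD-2, at -0.43 and -0.42. Psmb11, the thymic subunit gene, was at 0.30 in NUP153 KD-1 and -0.40 in NUP153 KD-2, and Psme3 at 0.10 and -0.38.

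Of 27 genes for transcription of class I genes and interferon signalling, 3 (11.1%) were past the fold in NUP153 KD-1, all lower, and 5 (18.5%) in NUP153 KD-2, beside 14.2% and 27.3% of all genes tested. Among them were Stat2, at -1.04 (-1.23 to -0.86), and Irf9, at -0.72 (-0.85 to -0.59), whose products act together in the response to type I interferon. Stat2 had 682 reads in control, 388 in NUP153 KD-1 and 817 in NUP153 KD-2. In NUP153 KD-2 Stat2 was at 0.15 and Irf9 at 0.08, under the fold. There, 3 of the 5 genes past the fold were higher and 2 were lower. With TMM or the size factors of DESeq2, 6 were higher and 1 was lower, and with library totals 8 were higher and 0 lower. Ezh2 was past the fold with none of these scalings, and Nfyb was not past it with library totals. Ifngr2, a chain of the interferon gamma receptor, was higher at 0.81 (0.68 to 0.94), and the NF-Y subunit gene Nfyb was lower at -0.68 (-0.73 to -0.63). Among the others, named after their values were seen, Ifngr1 was at 0.68, Socs1 at 1.03 and Ezh2 at -0.59. Irf1, the interferon gamma responsive activator of class I promoters, was under the fold at -0.15 and 0.49, also named after its values were seen.

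In NUP153 KD-1, 21 of 30 interferon-induced genes were past the fold, all lower, with a median of -1.26, and in NUP153 KD-2, 1 was higher and 1 was lower with a median of 0.05. Of all genes tested, 14.2% and 27.3% were past the fold in these comparisons, and whether the list differs from the class I genes was not tested. Usp18, which removes ISG15 from proteins, had 333 reads in control, 22 in NUP153 KD-1 and 297 in NUP153 KD-2, a log2 fold change of -4.12 (-4.84 to -3.53) and -0.27 (-0.50 to -0.04). Isg15, the ubiquitin-like modifier, had 701, 94 and 960 reads. Ifit1, Ifi44 and Iigp1 were at -3.22, -3.31 and -3.14 in NUP153 KD-1 and at -0.09, 0.42 and 0.22 in NUP153 KD-2. The lowest value among the 10 class I genes in NUP153 KD-1 was -1.02 for Psmb8, so that none of them was as low as the median of the interferon-induced genes.

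Feeder fibroblast markers were displaced in the same directions as the class I genes. In NUP153 KD-1, 10 of 18 markers were past the fold, all lower, with a median of -0.66, and in NUP153 KD-2, 15 of 18 were past it, all higher, with a median of 0.80. Of all genes tested, 5.62% were past it and lower in NUP153 KD-1 and 17.1% were past it and higher in NUP153 KD-2. The summed level of the 18 markers was 183018 scaled reads in control, 108272 in NUP153 KD-1 and 312639 in NUP153 KD-2. Of these reads, Col3a1 gave 59031, 23540 and 114450 and S100a4 gave 47774, 29909 and 60991, both named after their values were seen. None of the 18 was at 0 in any library. Postn, a matrix protein of fibroblasts, was at -2.01 and 0.68, Lum at -1.44 and 0.81, the smooth muscle actin gene Acta2 at -1.52 and 0.81, Loxl1 at -0.55 and 1.87 and the collagen gene Col5a1 at -0.15 and 1.58. The summed level of the 10 class I genes was 16213, 12088 and 23725 scaled reads in the same order of libraries. Of these reads, B2m alone gave 9083, 6070 and 14531. The part of the fibroblast markers in the class I values was not tested. In bulk RNA, fewer cells of a type and less RNA per cell cannot be told apart. In these counts per gene, neither can reads of ES cells and of MEFs.

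Among the ES cell markers, 1 of 15 (6.67%) was past the fold in NUP153 KD-1 and 4 (26.7%) in NUP153 KD-2, with medians of 0.19 and -0.29. Of all genes tested, 14.2% and 27.3% were past it. Utf1 was higher in both, at 0.69 and 1.17, and Zfp42, Dppa4 and Tdgf1 were lower in NUP153 KD-2 at -0.70, -0.67 and -0.61. Dppa5a was under the fold at 0.35 in NUP153 KD-1 and -0.57 in NUP153 KD-2. The summed level of the 15 ES cell markers was 410346 scaled reads in control, 448784 in NUP153 KD-1 and 304944 in NUP153 KD-2. Of 14 leukocyte and class II markers, 8 passed the filter on reads. In NUP153 KD-1, 2 of these were past the fold and higher, beside 8.63% of all genes tested. In NUP153 KD-2, 2 were past it and lower, beside 10.2% of all genes tested. The summed level of the 14 markers was 697, 1161 and 782 scaled reads, of which the class II gene H2-Eb1 gave 295, 702 and 427. H2-Eb1 was past the fold and higher in NUP153 KD-1, at 1.25 (1.05 to 1.46), and the T cell coreceptor gene Cd8a was lower in NUP153 KD-2 at -0.83. The pan-leukocyte gene Ptprc had 6 reads in control, 6 in NUP153 KD-1 and 12 in NUP153 KD-2, and 0 of the 14 were at 0 in any library. For trophoblast markers, 3 of 6 tested genes were past the fold and higher in each knockdown library, beside 8.63% and 17.1% of all genes tested. Among the 3, named after their values were seen, Cdx2 had 6, 25 and 24 reads and Gata3 had 17, 41 and 33. The interval of Gata3 in NUP153 KD-2, -0.04 to 1.79, includes 0. The summed level of the trophoblast markers was 4084, 3808 and 3334 scaled reads. Eomes was higher in both, at 0.67 and 0.60, while Tfap2c was under the fold at -0.36 and -0.43, Krt18 at 0.22 and -0.36 and Krt8 at 0.29 and -0.30. For primitive endoderm markers, 1 of 6 tested genes was past the fold in NUP153 KD-1 and 3 in NUP153 KD-2, all higher. Of all genes tested, 8.63% and 17.1% were past it and higher. The summed level of the primitive endoderm markers was 7532, 6484 and 11992 scaled reads. Of these, 6941, 5769 and 11133 came from Pdgfra, a growth factor receptor gene that fibroblasts express as well. Pdgfra was at -0.27 in NUP153 KD-1 and 0.68 in NUP153 KD-2, Dab2 at 0.25 and 0.63 and Sox7 at 0.38 and -0.20. The part of these markers in the class I values was not tested either.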

How the data were processed

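RNA was measured in 3 libraries, control, NUP153 KD-1 and NUP153 KD-2. The authors trimmed 50 bp single-end reads of ribosomal RNA-depleted total RNA, mapped them to mm10 (GRCm38) and deposited raw counts per gene for reads with a mapping quality above 30, without normalization. The submitters' processing notes name Trim Galore 0.4.1, TopHat2 2.1.1 and HTSeq, while the methods name featureCounts. The 5 summary lines for reads not assigned to 1 gene (23.0% to 25.6% of the reads in the count files) were left out. They include ambiguous reads, which matched more than 1 gene (1.45% to 1.65%). Each sample was assigned from its title.

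Reads were scaled by upper-quartile normalization over genes with a read, and log2 fold changes used a pseudocount of 0.5. Genes averaging 10 or more reads were tested, and a fold change above 1.5, the threshold in the methods, was named past the fold. The ERCC spike-ins and the authors' dispersion for edgeR were not used here, and p-values for 1 library against 1 were computed only for the alternative with an assumed dispersion, which these data do not estimate. Both knockdown libraries were compared with control by edgeR 4.0.16 (R 4.3.3), and DESeq2 1.42.0 as an alternative. RPKM and coordinates used GENCODE M21, in which 23376 genes matched by symbol and 650 by an older symbol. Promoter sequences are from RefSeq (GRCm38.p6) for 8 of the 10 genes. All 10 genes are named, and from each other list up to 5 genes averaging 100 or more reads with the largest difference, or those past the fold in the same direction in both knockdowns. The values of 1 gene of these lists are not reported here. The class I genes and the lists were chosen with earlier results of these data known. Fits, intervals and motif searches were tested on simulated data. Alternatives were TMM, the size factors of DESeq2, library totals, no minimum or a minimum mean of 100 reads, a pseudocount of 5, a fold change above 2 and an assumed dispersion of 0.04. Python 3.11.15, scipy 1.17.1 and pandas 2.3.3 were used.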

Additional observations from a re-analysis of the deposited data

Results flagged for a closer look

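In 6 of the 10 genes the NUP153 KD-1 library was lower and the NUP153 KD-2 library higher than control with counting intervals that exclude 0 on both sides, as in 9.32% of all genes tested. The lower bound of Nlrc5 in NUP153 KD-2, 0.0015, is barely above 0. H2-D1 was at -0.17 in NUP153 KD-1 and 0.44 in NUP153 KD-2 on the log2 scale. B2m was at -0.58 and 0.68, and Tap1 at -0.89 and 0.78. Tapbp was at -0.23 and 0.74, Psmb8 at -1.02 and 0.82, and Nlrc5 at -0.93 and 0.37. At any size, 8 of the 10 genes and 19.9% of all genes tested were lower in NUP153 KD-1 and higher in NUP153 KD-2. Both values are taken against the same control library, and with 1 library for each shRNA the difference between them could not be tested against replicates.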

How the results depend on the processing

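With other scalings, pseudocounts or no minimum mean, the genes past the fold numbered 4 or 5 of 10 in NUP153 KD-1, 6 or 7 in NUP153 KD-2 and 9 in NUP153 KD-2 against NUP153 KD-1 (main counts 4, 6 and 9), and B2m in NUP153 KD-1 and H2-D1 in NUP153 KD-2 (library totals, 0.60) were the genes added. With a minimum mean of 100 reads, which leaves out Psmb8 and Psmb9, the count in NUP153 KD-1 was 2. With a fold change above 2 the counts were 1 (Psmb8), 1 (Tap2) and 5, and of the 16670 genes 770, 1212 and 1839. With the assumed dispersion of 0.04 they were 0, 0 and 3 (Tap1, Tap2 and Psmb8), and these counts rest on that assumption. Of all genes, 79, 66 and 689 were called. No log2 fold change of the 10 genes past the fold changed sign. Library totals moved the median of all genes in NUP153 KD-2 from -0.02 to 0.14. Other class I heavy chains past the fold numbered 6 without a minimum mean in NUP153 KD-1 (1 with it) and 3 with a minimum mean of 100 in NUP153 KD-2 (7 as reported, and 5 to 9 under the other alternatives). Peptide loading genes numbered 1 in NUP153 KD-1 and 0 in NUP153 KD-2 at that minimum, and interferon-induced genes 1 in NUP153 KD-2. Signalling genes numbered 8 in NUP153 KD-2 with library totals, all higher. For both knockdown libraries as a group, 4 genes were called after upper-quartile normalization and 4 among all genes with a read, 0 with the size factors of DESeq2 and 2 with the Wald test, none of them a class I gene. No paired analysis was possible because each condition has 1 library. Genes that averaged under 100 reads (Psmb8, Psmb9) are limited by depth, and Nlrc5 had 63 reads in NUP153 KD-1.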
